A study of Mus musculus with 4 samples.

Results

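The mouse microRNAs (miRNAs) mmu-miR-199a-3p, mmu-miR-199a-5p and mmu-miR-214-3p, written below without the species prefix, were 3 of the 1265 with a probe on each of 4 arrays. They were chosen by name, as miRNAs of the Dnm3os transcript of mesenchymal cells, with earlier results of these data known. The probe for miR-199a-3p carries a second name, miR-199b-3p, and reads both. The arrays compared esophagus and serum of L2-IL-1β mice at 28 and at 46 weeks of age, with 1 array per sample type and age. These transgenic mice make human interleukin-1β, under the L2 promoter of Epstein-Barr virus, in the squamous lining of the upper digestive tract, and inflammation and Barrett's esophagus, a columnar lining in place of the squamous one, follow with age. All 4 samples carry the strain and the disease label. Mice without the transgene were not analysed here, and no source used here gives the number of mice behind each RNA sample.

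A miRNA is cut as a duplex from a hairpin. Its 5p and 3p strands can each be loaded into an Argonaute protein, where bases 2 to 8, the seed, pair with target messenger RNAs. Dnm3os is a noncoding RNA transcribed on the strand opposite to an intron of the dynamin gene Dnm3. It serves as the precursor of miR-199a and miR-214, and the transcription factor Twist1 is known to drive it in mesenchyme. In adult organs these miRNAs are known from fibroblasts, pericytes and other mesenchymal cells, and they are widely studied in fibrosis. Among their studied targets are the membrane scaffold protein caveolin-1 for miR-199a-5p in lung fibroblasts and the growth kinase mTOR for miR-199a-3p in human liver cancer cells.

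The mature sequences of all 3 members were found in RefSeq (GRCm38.p6). They are shown with 2 same-seed relatives from the array. The miR-199a-3p probe also reads miR-199b-3p, while miR-761 has a probe of its own and differed from miR-214-3p in 9 of 22 positions. No mature miR-199b-5p was found there, so it is not shown, although the Mir199b hairpin below also holds the seed of miR-199a-5p. Whether a probe also reads closely similar strands was not measured. Capitals mark the seed, and each sequence runs 5′ to 3′.
miR-199a-5p: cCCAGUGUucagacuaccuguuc
miR-199a-3p: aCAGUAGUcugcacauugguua
miR-199b-3p: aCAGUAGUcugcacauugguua
miR-214-3p: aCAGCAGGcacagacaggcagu
miR-761: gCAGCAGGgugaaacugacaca
The mature miR-199a-3p and miR-199b-3p were the same in 22 of 22 positions, so a shared probe cannot tell them apart. The seed of miR-214-3p was shared with miR-761 alone among the mature miRNAs of that table. From position 1 at the 5′ end, the seeds of miR-199a-3p and miR-214-3p differed in 2 of 7 positions, by U5C and U8G.

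The strands of miR-199a are cut from 2 hairpin genes, and miR-199b-3p from a hairpin of its own. The hairpins are shown because the same arms, in capitals, lie in more than 1 of them.
Mir199a-2: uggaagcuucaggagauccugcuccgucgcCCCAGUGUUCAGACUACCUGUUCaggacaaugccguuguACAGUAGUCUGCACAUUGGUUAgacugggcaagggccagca
Mir199a-1: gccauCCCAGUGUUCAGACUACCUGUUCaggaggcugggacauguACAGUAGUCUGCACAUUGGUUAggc
Mir199b: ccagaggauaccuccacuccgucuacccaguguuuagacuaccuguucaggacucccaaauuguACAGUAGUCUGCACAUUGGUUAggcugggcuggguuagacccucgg
Mir199a-2 lies at chr1:162217814-162217923 on the plus strand, Mir199a-1 at chr9:21496495-21496564 on the minus strand and Mir199b at chr2:32318460-32318569 on the plus strand (GRCm38.p6). Mature miR-214-3p lies at chr1:162223438-162223459 on the plus strand. In the RefSeq annotation Mir199a-2 and Mir214 fall inside Dnm3os, and 5492 bases separate miR-199a-3p from miR-214-5p there. Mir199a-1 and Mir199b lie outside it. The signals of miR-199a-5p and miR-199a-3p can therefore hold RNA from genes other than Dnm3os, while RefSeq lists miR-214-3p at Dnm3os alone.

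All 3 members were detected on all 4 arrays. Detection meant a spot intensity above the mean of 1664 spots without material (BLANK) plus 2 SD, and each member was also above the 95th percentile of the 97 spots named No Probe. Net signal is the spot intensity minus the BLANK mean, in arbitrary units. The number of miRNAs detected, of 1265, was 973 on the 28-week and 939 on the 46-week esophagus array, and 1000 and 853 on those of serum. The brightest of the 24 negative-control spots reached net signals of 10.9 and 13.1 in esophagus and 20.8 and 20.5 in serum. The lowest member signal, that of miR-214-3p in serum at 28 weeks, stood at 28.6. The tissue labels were checked with miRNAs known from epithelium and from blood. The 5 miR-200 family 3p strands on the epithelial list were over 4-fold higher in esophagus at both ages. The probe of miR-451a, the main erythrocyte miRNA, had net signals of 86.9 and 88.5 in esophagus against 36870.7 and 23648.1 in serum.

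The net signal of the miR-199a-3p probe was 292 in esophagus at 28 weeks, 335 in esophagus at 46 weeks, 95.9 in serum at 28 weeks and 102 in serum at 46 weeks. The 2 esophagus arrays were high and the 2 serum arrays low, with a gap between them. For miR-199a-5p the net signal was 189, 205, 56.0 and 52.5 in the same order. Here too both esophagus arrays stood above both serum arrays. For miR-214-3p, the member given by Dnm3os alone, it was 54.1, 51.4, 28.6 and 43.6. In these unscaled signals the serum array at 46 weeks stood closer to the esophagus arrays than to the other serum array. This depended on the scaling. With arrays scaled to the spike-in control spots, the log2 difference between the serum arrays was 0.02. Esophagus then stood 0.53 above serum at 28 weeks and 0.19 above it at 46 weeks. With different probes the brightness also depends on the probe, so these levels are compared between arrays and not between miRNAs.

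**Figure D1:**
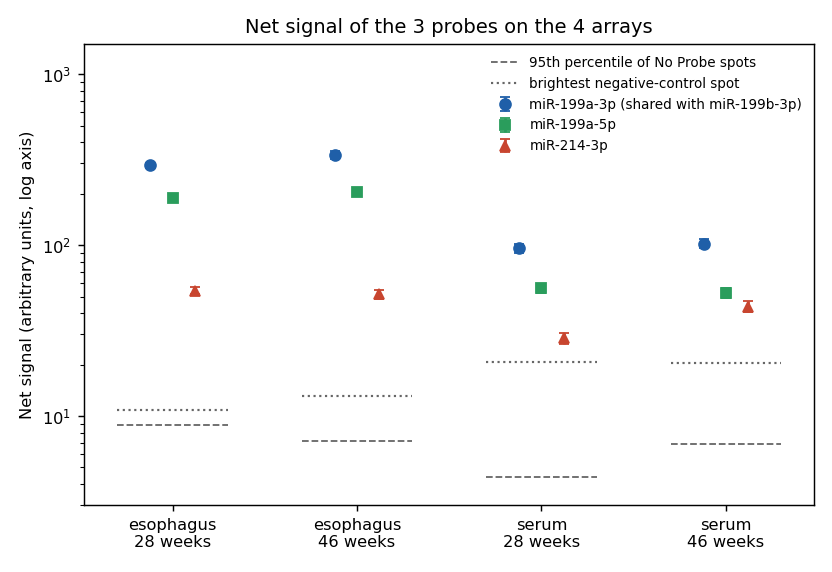
Net signal of each probe (arbitrary units, logarithmic axis) on the 4 arrays, with bars of 1 spot-noise SD; dashed and dotted lines mark the 95th percentile of No Probe spots and the brightest negative-control spot of each array. All 3 probes lie above both lines on every array, and miR-214-3p in serum goes from 28.6 at 28 weeks to 43.6 at 46 weeks.

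For comparisons, each array was scaled so that the median net signal of the 731 miRNAs detected on all 4 arrays was 25 units. Differences are given on the log2 scale with a spot-noise SD, which covers the error of single spots and leaves out all variation between mice, extractions and hybridisations. With 1 array per group no difference has a replicate check, no test was run, and the number of arrays limits the precision.

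In esophagus, the series asks what changes between 28 and 46 weeks as the disease advances, and no member differed by as much as 2-fold. The scaled net signal of miR-199a-3p was 418 at 28 weeks and 398 at 46 weeks, a log2 difference of -0.07 (spot-noise SD 0.09). That of miR-199a-5p was 271 and 243, a difference of -0.15 (spot-noise SD 0.09). Both 95% intervals from the spot-noise SD, from -0.25 to 0.11 and from -0.33 to 0.03, include 0. For miR-214-3p the scaled signal was 77.5 and 60.9, and its difference of -0.35 (spot-noise SD 0.12, interval -0.58 to -0.12) lay below 0.

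No member reached 2-fold in esophagus, a size that 2.97% of 843 detected miRNAs reached in either direction. Of them 11 were higher and 14 lower, a split that became 30 and 6 without scaling, 7 and 18 with the 75th percentile, 25 and 14 with quantile normalization of net signals and 3 and 3 in the normexp setting. That setting joined normexp background correction from the reading around each spot, an offset of 50 units and quantile normalization. An added offset draws the log2 differences of dim probes toward 0 by construction, and the parts of this setting were not varied one at a time. The quartiles of all detected miRNAs lay at -0.26 and 0.19, with miR-199a-3p and miR-199a-5p between them and miR-214-3p below, and 19.2% were lower than miR-214-3p. The members' median was -0.15 against -0.03 for all detected miRNAs. When the arrays were left unscaled the difference turned to 0.20 for miR-199a-3p and 0.12 for miR-199a-5p. That of miR-214-3p was then -0.08, and the median of all detected miRNAs stood at 0.24. For miR-214-3p the difference was -0.04 in the normexp setting, and the reading around its spot was 63.6 at 28 weeks and 53.0 at 46 weeks.

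The relatives on the array also stayed under 2-fold. For miR-199b-5p, the other strand of the miR-199b hairpin, net signals were 143 and 154 in esophagus, and its log2 difference was -0.17 (spot-noise SD 0.09). The passenger strand miR-214-5p was dim, with net signals of 10.1 and 11.2 and a difference of -0.12 (spot-noise SD 0.39). The probe of miR-761, which shares the seed of miR-214-3p, was under the No Probe limit on all 4 arrays, with net signals of 4.35 to 7.76. None of the 6 fibroblast and stroma miRNAs, a list of miR-152, miR-22, miR-21a and the miR-29 family, reached 2-fold. Their median was -0.25, with a range from -0.35 to 0.36. In a bulk sample fewer cells of a type and less RNA per cell cannot be told apart.

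In serum, miR-214-3p stood higher at 46 weeks than at 28 weeks relative to the other miRNAs, by more than the miR-199a strands did. At 28 weeks its spot intensity was 74.8 on a BLANK mean of 46.3, and at 46 weeks 96.5 on 52.9. Its scaled net signal was 31.9 and 56.3, a log2 difference of 0.82 (spot-noise SD 0.15, interval 0.52 to 1.12), or 1.76-fold. For miR-199a-3p the scaled signal was 107 and 132, a difference of 0.30 (spot-noise SD 0.12, interval 0.06 to 0.53). For miR-199a-5p it was 62.5 and 67.7, a difference of 0.12 (spot-noise SD 0.13, interval -0.15 to 0.38).

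No member passed 2-fold in serum, where 11.9% of 822 detected miRNAs did so in either direction and 12.5% were above miR-214-3p. The members' median was 0.30 against 0.08 for all detected miRNAs. Of those past 2-fold, 70 were higher and 28 lower. This split turned with the scaling: 39 and 55 without scaling, 46 and 51 with the 75th percentile, 5 and 245 with spike-in scaling and 28 and 74 in the authors' deposited table. The median of all detected miRNAs moved with it, from 0.08 to -0.13, -0.10, -0.72 and -0.25. Directions in serum are therefore given relative to that median. Under these 5 scalings miR-214-3p stood 0.74, miR-199a-3p 0.22 and miR-199a-5p 0.04 above it. These distances are the same by construction, since each scaling multiplies a whole array by 1 factor. With quantile normalization of net signals they were 0.70, 0.09 and -0.01, and in the normexp setting 0.27, 0.17 and 0.02.

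As each setting gave it, the serum difference of miR-214-3p was above 0 in all 7 settings, from 0.02 on the spike-in scale to 0.82. The lowest of these was smaller than its spot-noise SD of 0.15. That of miR-199a-3p ranged from -0.50 to 0.30 and that of miR-199a-5p from -0.68 to 0.12, so their directions in serum depended on the scaling. In serum the mean net signal of the spike-in controls was 9324.0 at the younger age and 14018.3 at the older. In the normexp setting, with its offset of 50 units, miR-214-3p stood at 0.27. The readings around its spot were 45.5 and 53.2, and the BLANK means 46.3 and 52.9. The parts of the offset, the background and the quantile normalization in the value of 0.27 were not tested.

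**Figure D2:**
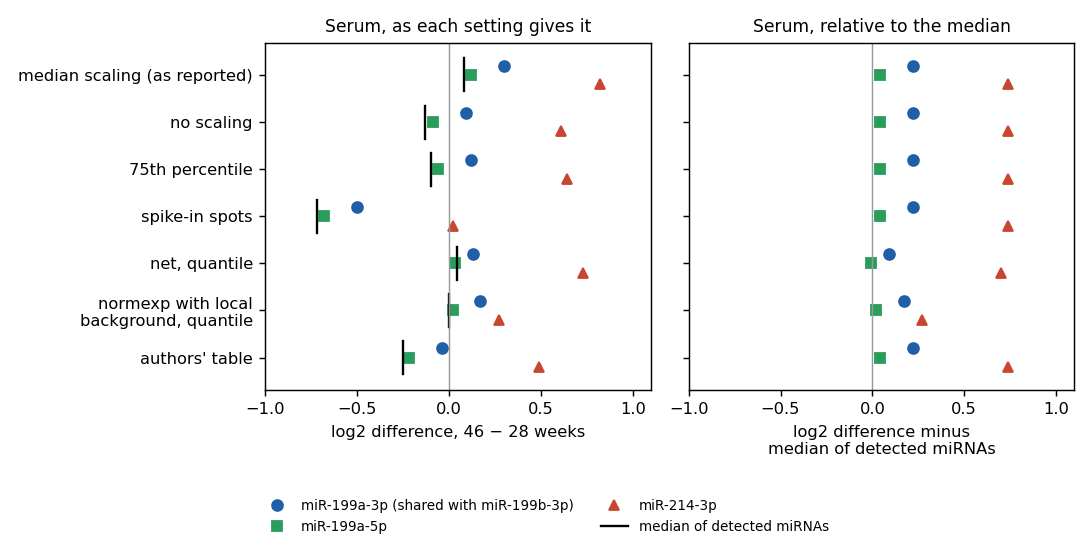
Log2 difference of 46 minus 28 weeks in serum for the 3 probes under 7 settings (rows), as each setting gives it (left, with the median of all detected miRNAs as a black bar) and relative to that median (right). Under the 5 linear scalings, which share this distance by construction, miR-214-3p lies 0.74 above the median. In the normexp setting, which adds an offset of 50 units, it lies 0.27 above the median.

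A difference between 2 members on the same arrays does not depend on a scaling factor. In serum the change of miR-199a-5p minus that of miR-214-3p was -0.70 (spot-noise SD 0.20), and that of miR-199a-3p minus miR-214-3p was -0.52 (spot-noise SD 0.19). In the normexp setting these became -0.25 and -0.10. The 2 strands of miR-199a differed from each other by 0.18 (spot-noise SD 0.18). In esophagus the 3 pairs differed by 0.08 to 0.28, with spot-noise SDs of 0.13 to 0.15. There the direction turned in the normexp setting for both pairs with miR-214-3p, from 0.28 to -0.06 for miR-199a-3p and from 0.19 to -0.24 for miR-199a-5p. The neighbour strand miR-214-5p, which comes from the same hairpin as miR-214-3p, was too dim in serum to set beside it: its net signals were 7.59 and 8.0, and its difference was 0.28 with a spot-noise SD of 0.50. For miR-199b-5p the serum net signals were 34.3 and 33.8, and the difference was 0.19 (spot-noise SD 0.16).

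With median scaling, markers of other cell types also differed between the serum arrays. Both squamous miRNAs, miR-203-3p and miR-205-5p, were over 2-fold higher at 46 weeks (median 2.25), with a summed scaled signal of 60.5 and 312.4. All 3 striated muscle miRNAs detected at both ages were over 2-fold lower (median -1.99), with a summed signal of 969.8 and 210.8 over the 4 on the array. The fourth, miR-206-3p, was not detected at 46 weeks, and the liver miRNA miR-122-5p stood at -2.87. Of 4 erythrocyte miRNAs 2 were over 2-fold lower (median -0.85), and their summed signal was 42409.5 and 31898.3. Of 4 columnar and glandular miRNAs 2 were over 2-fold higher (median 0.41), and their summed signal was 199.8 and 206.9. Of 5 leukocyte miRNAs 1 was over 2-fold higher (median 0.20), and the list's summed signal was 1349.2 and 2558.3. This 1 was the myeloid miR-223-3p, with a difference of 1.52 and net signals of 526.5 and 1306.5. The 2 endothelial strands of miR-126 stood at 0.21 and -0.46. The pair listed for platelets and circulating cells that share the members, miR-223-3p and miR-126-3p, had a median of 0.86. None of the 6 fibroblast and stroma miRNAs reached 2-fold (median 0.12, range -0.68 to 0.56). These calls depended on the scaling. On the spike-in scale each serum difference drops by the same amount, as the median of all detected miRNAs did from 0.08 to -0.72. There miR-215-5p (1.45 with median scaling), miR-375-3p (1.19) and miR-223-3p (1.52) fall under 2-fold. Others, such as miR-29c-3p (-0.68) and miR-194-5p (-0.65), become over 2-fold lower. Both squamous miRNAs and the 3 striated muscle miRNAs keep their calls. The part of these cell types in the miR-214-3p value was not tested.

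For the miR-199a strands, esophagus and serum differed by more than the ages did. At 28 weeks the scaled signal of miR-199a-5p was 271 in esophagus and 62.5 in serum, a log2 difference of 2.12 (spot-noise SD 0.10), or 4.33-fold. For miR-199a-3p it was 418 and 107, a difference of 1.96 (spot-noise SD 0.10), or 3.90-fold. For miR-214-3p it was 77.5 and 31.9, a difference of 1.28 (spot-noise SD 0.13), or 2.43-fold. At 46 weeks the differences were 1.85 (spot-noise SD 0.13) for miR-199a-5p, 1.60 (spot-noise SD 0.11) for miR-199a-3p and 0.11 (spot-noise SD 0.14) for miR-214-3p. The esophagus arrays were above the serum arrays for both miR-199a strands at both ages. The interval for miR-214-3p at 46 weeks, from -0.17 to 0.39, includes 0.

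With median scaling, 1 member was at least 4-fold higher in esophagus, miR-199a-5p at 28 weeks, a size that 7.04% of 881 detected miRNAs reached at 28 weeks and 6.19% of 776 at 46 weeks. At 28 weeks 62 miRNAs were higher in esophagus and 33 in serum, and this split was 49 and 55 without scaling, 39 and 79 on the spike-in scale and 51 and 52 in the authors' deposited table. The members' median was 1.96 at 28 weeks and 1.60 at 46 weeks, against 0.23 and 0.03 for all detected miRNAs. The difference of miR-199a-5p at 28 weeks kept this size in 1 of 6 other settings, with the 75th percentile at 2.15, and stood between 1.37 and 1.95 in the others. With the 75th percentile miR-199a-3p stood at 2.0 at 28 weeks, at the 4-fold limit, and miR-199a-5p at 2.02 at 46 weeks, past it. At 2-fold, a limit added after the values were seen, all 3 members passed at 28 weeks, when 24.9% of detected miRNAs did, and both miR-199a strands passed at 46 weeks, when 17.4% did. The miR-199a strands passed 2-fold at both ages in all 7 settings. For miR-214-3p at 28 weeks the setting mattered, with 0.92 without scaling, 0.99 in the authors' deposited table, 0.53 on the spike-in scale and 0.42 in the normexp setting, all under 2-fold. The kits that extracted tissue and serum RNA differed, and an effect of the kit cannot be told apart from that of sample type.

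**Figure D3:**
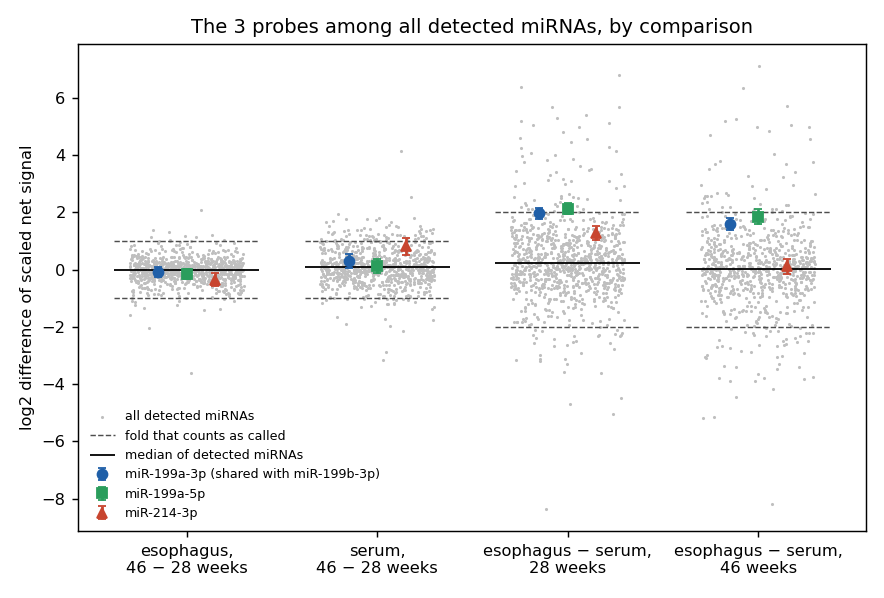
Log2 difference of scaled net signal for the 3 probes (coloured, bars of 95% intervals from the spot-noise SD) among all miRNAs detected on both arrays (grey) in each of 4 comparisons, with the median (black) and the fold that counts as called (dashed). The miR-199a probes lie at 1.96 and 2.12 for esophagus minus serum at 28 weeks and at 1.60 and 1.85 at 46 weeks, and miR-214-3p at 1.28 and 0.11.

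With median scaling, the gap between the miR-199a strands and miR-214-3p widened between the ages. This restates the age differences above, since the comparisons share the same 4 arrays. The esophagus minus serum difference of miR-199a-5p exceeded that of miR-214-3p by 0.84 (spot-noise SD 0.16) at 28 weeks and by 1.73 (spot-noise SD 0.19) at 46 weeks. In the normexp setting these values were 1.08 and 1.09, nearly the same at both ages. There miR-214-3p stood at 0.42 and 0.11, against 1.28 and 0.11 with median scaling. For miR-199a-5p the values were 1.5 and 1.2, against 2.12 and 1.85. The part of the offset in this was not tested. The strands of miR-199a differed from each other by -0.15 and -0.25 (spot-noise SD 0.14 and 0.17). The miR-199b-5p probe, whose hairpin lies on another chromosome, gave 2.42 (spot-noise SD 0.11) and 2.06 (spot-noise SD 0.15) for esophagus minus serum.

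In the same 2 comparisons all 3 members had differences within the range of the fibroblast and stroma list, which had a median of 1.32 at 28 weeks (range 0.34 to 2.36) and 1.22 at 46 weeks (range -0.05 to 2.49). All 3 also lay within the ranges of the leukocyte list (-1.48 to 2.26 and -2.17 to 2.04), so these ranges do not set the stromal list apart. They lay within those of the smooth muscle list too (-0.30 to 5.19 and -0.03 to 5.73), whose low end was miR-143-5p alone. The other smooth muscle strands detected on both arrays lay above all 3 members. They stood at 3.51, 4.16 and 5.19 at 28 weeks and at 3.42 and 5.73 at 46 weeks. Of the 6 fibroblast and stroma miRNAs, 5 at 28 weeks and 3 at 46 weeks were at least 2-fold higher in esophagus. Among all detected miRNAs 24.9% and 17.4% were, at this limit added after the values were seen. The lists for smooth muscle, striated muscle and epithelium had larger differences, with medians of 3.83, 3.58 and 4.29 at 28 weeks and 3.42, 5.20 and 3.75 at 46 weeks. The 2 endothelial strands lay at 1.06 and 1.16 at 28 weeks and between 0.91 and 1.48 at 46 weeks. Erythrocyte miRNAs lay in the opposite direction, with medians of -4.71 and -5.17. Which cells released the serum miRNAs was not measured.

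**Figure D4:**
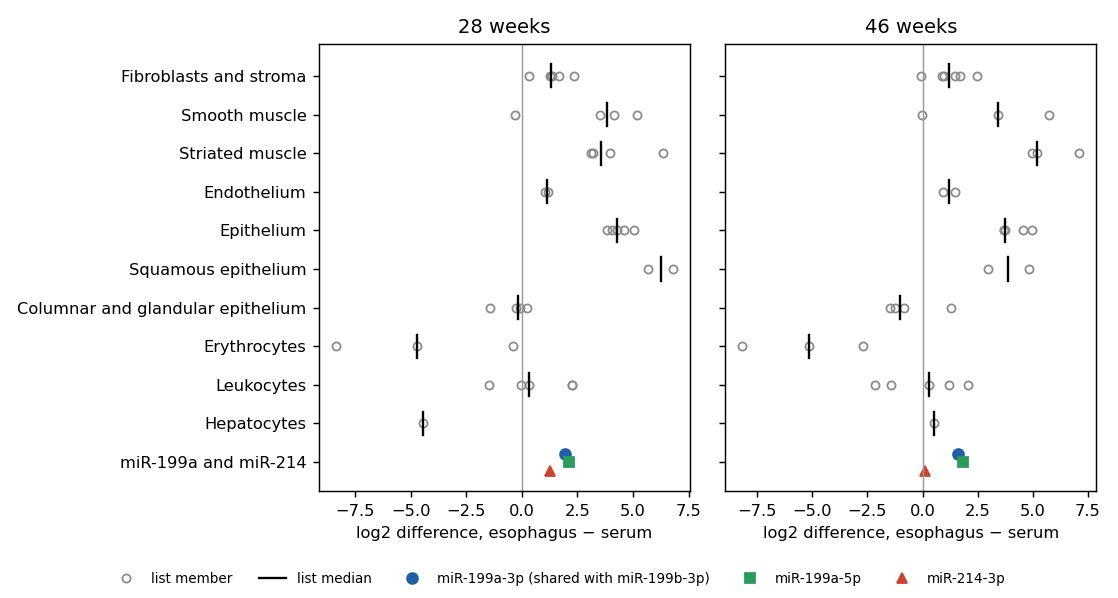
Log2 difference of esophagus minus serum at 28 weeks (left) and 46 weeks (right) for the members of each cell-type list detected on both arrays (open circles, list median as a bar) and for the 3 probes (coloured). The pair listed for platelets and circulating cells is drawn only in the leukocyte and endothelium rows. All 3 probes lie within the ranges of the fibroblast and stroma, smooth muscle and leukocyte lists at both ages, with miR-214-3p at 1.28 and 0.11.

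The miRNAs whose pattern was most like each member were found from log2 scaled signals centred over the 4 arrays, by the root mean square difference, among 573 other miRNAs detected in esophagus and bright on at least 1 array. For miR-199a-3p these were miR-26a-5p at 0.077, miR-362-5p at 0.106 and its own partner strand miR-199a-5p at 0.122. For miR-199a-5p they were miR-27a-3p at 0.061, miR-155-5p at 0.084 and let-7e-5p at 0.086, with miR-199a-3p at rank 6 and miR-199b-5p at rank 7, at 0.132. For miR-214-3p they were miR-23a-3p at 0.049, miR-99b-5p at 0.060 and miR-210-3p at 0.12. The net signals of miR-23a-3p were 2262.3 and 2058.0 in esophagus and 1120.1 and 1862.6 in serum, and its lowest array, like that of miR-214-3p, was serum at 28 weeks. The miR-199a-3p and miR-199a-5p probes were at 0.581 and 0.692 from miR-214-3p and 200th and 284th in its order. Likeness over 4 arrays rests on few points that share their array's scaling.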

How the data were processed

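Small RNA from esophagus and serum of L2-IL-1β mice at 28 and 46 weeks (1 array per group, 4 in all) was labelled with Hy5 and read on 1-colour Toray 3D-Gene arrays, per the labels' protocols. Per the file headers, the deposited files are scanner output with a median intensity for each of 3200 spots and one for its surroundings, joined over 3 gains, before any background correction or normalization. No source used here gives a scanner or software version. The authors' deposited value table held intensity values that, set against the scanner values, were the spot intensity minus about the BLANK mean (within 0.05), multiplied on each array by a factor that set the listed miRNAs' median to 25. Its columns held 943 to 1068 miRNAs, and the rule that left out the others was not stated.

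The BLANK mean was subtracted from each spot and arrays were scaled to the median of the 731 miRNAs detected on all 4. The local background entered only 1 alternative, the normexp setting (limma 3.58.1, R 4.3.3, offset 50) with quantile normalization. The other alternatives were no scaling, the 75th percentile, the spike-in controls, quantile normalization of net signals, the authors' deposited table, and for counts the No Probe limit or no detection filter. A miRNA was detected above the BLANK mean plus 2 SD, and a difference counted from 2-fold for age and from 4-fold for sample type, among the miRNAs that both arrays detected. The spot-noise SD joins the No Probe SD and the spike-in coefficient of variation (3.23% to 5.51% over 16 spots). It carries no variation between samples, and with 1 array per group no p-value was computed. A spot marked bad in esophagus at 28 weeks was left out. Median scaling, log2 differences and 2-fold calls were tested on simulated arrays with known changes. The detection limits, the spot-noise SD, the alternative settings and the pattern ranking were not. Python 3.11.15, pandas 2.3.3, numpy 2.4.6 and matplotlib 3.10.9 were used.

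The members, the cell-type lists and the tests were chosen with earlier results of these data known. Named miRNAs are the 3 members, other miR-199, miR-214 and same-seed probes, the 3 miRNAs nearest in pattern to each member, and members of the lists. The lists were fibroblasts and stroma, smooth muscle, striated muscle, endothelium, epithelium, squamous epithelium, columnar and glandular epithelium, erythrocytes, leukocytes and hepatocytes. A further pair, miR-223-3p and miR-126-3p, was listed for platelets and circulating cells that share the members. Sequences and positions are from RefSeq, GRCm38.p6, which held a mature sequence for 1024 of the 1265 probes. The files name no genome build.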

Additional observations from a re-analysis of the deposited data

Results flagged for a closer look

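The probe of miR-214-3p had age differences of opposite sign in the 2 sample types. The log2 difference of 46 minus 28 weeks was -0.35 (spot-noise SD 0.12) in esophagus and 0.82 (spot-noise SD 0.15) in serum. Whether esophagus and serum differ in this was not tested, since each group had 1 array. Under all 7 settings the esophageal value was below 0, from -0.39 to -0.04, and the serum value above 0, from 0.02 to 0.82. In esophagus the values of -0.04, in the normexp setting, and -0.08, without scaling, were smaller in size than the spot-noise SD. In serum this held for 0.02, on the spike-in scale. The esophageal minus the serum change was -1.17 (spot-noise SD 0.19), and 9.44% of the 731 miRNAs detected on all arrays had a lower value. It ranged from -1.17 to -0.31 over the settings. The age differences of miR-199a-3p (-0.07 and 0.30) and miR-199a-5p (-0.15 and 0.12) were also of opposite sign, but at least 1 of each pair had an interval that included 0. For these the esophageal minus the serum change was -0.37 and -0.27 (spot-noise SD 0.15 and 0.16), and its sign turned with the scaling.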

How the results depend on the processing

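No paired analysis was possible because each group had 1 array. All 3 members were detected on every array under both detection limits. Each member's esophagus minus serum difference kept its sign in all 6 alternatives. So did both age differences of miR-214-3p, though they came as near to 0 as -0.04 in esophagus and 0.02 in serum. The members' median moved in 8 of 24 cases. In esophagus it went from -0.15 to 0.12 without scaling, and in serum from 0.30 to -0.50 on the spike-in scale and -0.04 in the authors' deposited table. For esophagus minus serum at 28 weeks it went from 1.96 to 1.61 without scaling, 1.22 on the spike-in scale, 1.67 in the authors' deposited table and 1.5 in the normexp setting, and at 46 weeks from 1.60 to 1.2 in that setting. The cause was not tested, beyond the factor each scaling applies to a whole array. The parts of the normexp setting were not varied one at a time, and the direction of 2 differences between members in esophagus turned in it.

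Counts of miRNAs past the fold moved by over 1.5 times in 34 of 66 cases, 2 of them from a limit of 2-fold added after the data were seen, which gave 219 and 135 higher in esophagus at 28 and 46 weeks. Main counts of higher and lower were 11 and 14 in esophagus, 70 and 28 in serum, 62 and 33 for esophagus against serum at 28 weeks and 48 and 51 at 46 weeks. Without scaling, esophagus gave 30 and 6, serum 39 and 55, and 55 were lower at 28 weeks between sample types. The 75th percentile gave 7 higher in esophagus and 46 and 51 in serum. The spike-in scale gave 5 and 245 in serum and 39 and 79 between sample types at 28 weeks. Quantile normalization of net signals gave 25 higher in esophagus. The normexp setting, which changes the background, adds an offset of 50 units and quantile-normalizes at once, gave 3 and 3 in esophagus, 11 and 9 in serum, 21 and 13 between sample types at 28 weeks and 17 and 16 at 46 weeks. The authors' deposited table gave 28 and 74 in serum and 52 lower between sample types at 28 weeks. The stricter detection limit left 1 and 2 in esophagus. With no detection filter the counts were 95 and 148 in esophagus and 154 and 124 in serum, and 132 and 127 were higher in esophagus than in serum at 28 and 46 weeks. Dim probes limit these counts, and single arrays limit all sizes.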
